A study of Mus musculus with 22 samples.

Results

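The nuclear-encoded subunits of the respiratory chain were taken by gene name, as every entry whose symbol starts with Nduf followed by a, b, c, s or v and a digit, with Uqcr, with Cox4 to Cox8, or with Atp5. This gave 80 of the 24490 gene entries, of which 37 belong to complex I (Nduf), 8 to complex III (Uqcr), 18 to complex IV (Cox) and 17 to complex V, the ATP synthase (Atp5). The names follow the symbols: Ndufa4 was counted with complex I although later work places it in complex IV, Cox7a2l is a factor of supercomplexes, and Atp5s and Atp5sl are not subunits of the synthase itself. Expression was measured in 22 RNA-seq libraries of cultured mouse cortical neurons, and 75 of the 80 members reached a mean of 1 FPKM (fragments per kilobase of transcript, relative to the size of the library) and entered the tests.

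All cultures were C57BL/6 E16.5 embryonic cortical neurons labelled Creb1-/-, grown for 7 days, silenced with 1 µM tetrodotoxin and 100 µM D-AP5, infected with a herpes simplex virus vector and then depolarized for 2 h in 55 mM KCl. The vector encoded either GFP or a form of CREB: the wild type (WT), one that cannot be glycosylated at S40 (S40A), one that cannot be phosphorylated at S133 (S133A), or one lacking both sites (S40A-S133A). GFP, WT and S40A had 2 libraries each after 4 h of virus and 4 each after 8 h, and S133A and S40A-S133A had 2 libraries each after 8 h. All groups share the Creb1 deletion, the silencing and the depolarization, so no library shows an unstimulated neuron or one with its own Creb1. The labels give no promoter for the virus and do not say whether replicates came from separate cultures, so the p-values measure the spread between these libraries, which may be technical.

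The respiratory chain sits in the inner membrane of the mitochondrion. Complex I takes electrons from NADH, complex III passes them from ubiquinol to cytochrome c, complex IV hands them to oxygen, and complex V uses the proton gradient to make ATP. A few core subunits are encoded by the mitochondrial genome and were not analysed here, while the rest, described here, are nuclear genes whose promoters are known for sites of the factors NRF1 and GABP (an ETS factor). CREB binds the cAMP response element (CRE) and is activated by phosphorylation after depolarization. In neurons most ATP for ion pumping and synaptic work comes from this chain.

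Many of these genes have processed copies elsewhere in the genome, and this bears on how their reads can be counted. A transcript of 22 of the 75 tested members matched another annotated gene or pseudogene at 95% identity or more, and these 22 were kept apart from the other 53, called single-copy below. An example is Cox7c, a small subunit of complex IV at chr13:86044816-86046904 on the minus strand (GRCm38), and the transcribed processed pseudogene Gm10012 at chr17:25901856-25902227 on the plus strand. Their 192 coding bases, shown because the level of this member differs widely between libraries, differ at only 2 bases, written in capitals.
Cox7c: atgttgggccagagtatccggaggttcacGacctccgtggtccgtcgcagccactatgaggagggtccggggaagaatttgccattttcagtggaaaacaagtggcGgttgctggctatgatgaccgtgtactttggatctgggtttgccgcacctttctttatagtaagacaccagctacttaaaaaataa
Gm10012: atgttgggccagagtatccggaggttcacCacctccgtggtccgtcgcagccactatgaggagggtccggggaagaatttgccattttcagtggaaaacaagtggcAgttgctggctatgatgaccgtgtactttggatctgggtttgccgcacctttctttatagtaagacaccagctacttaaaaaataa

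Promoter sequence was available for 66 of the 80 members, as 250 bases before to 50 after the start from RefSeq (GRCm38.p6), and was searched on both strands. The full CRE TGACGTCA was found in 4 members, or 6.06%, against 2.03% of all 27025 genes in the table. The shorter CRE core TGACG, which the full element contains, was in 25 members (37.9%, against 23.0%). The NRF1 element (GCGC, any base, TGCGC) was in 15 members (22.7%, against 5.19%) and the ETS core CCGGAAG in 14 (21.2%, against 9.93%). These matches are letters in a window and not measured binding. The windows of 60 bases around the 4 full CREs are printed because the virus carried the factor that binds this element, and those around 2 NRF1 elements and 1 ETS core stand for the other motifs. The capitals mark the motif on the strand of the gene.
Ndufa10, chr1:92473792-92473851, minus strand: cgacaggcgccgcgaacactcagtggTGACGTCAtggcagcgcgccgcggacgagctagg
Ndufa11, chr17:56717578-56717637, plus strand: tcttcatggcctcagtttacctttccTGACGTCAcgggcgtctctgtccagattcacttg
Ndufb2, chr6:39592505-39592564, plus strand: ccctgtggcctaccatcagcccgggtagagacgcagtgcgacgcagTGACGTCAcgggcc
Uqcrfs1, chr13:30545317-30545376, minus strand: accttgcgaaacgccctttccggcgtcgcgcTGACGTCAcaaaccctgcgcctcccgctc
Ndufa8 (NRF1 element), chr2:36049339-36049398, minus strand: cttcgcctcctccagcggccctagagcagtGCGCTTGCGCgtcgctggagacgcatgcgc
Cox6a1 (NRF1 element), chr5:115349086-115349145, minus strand: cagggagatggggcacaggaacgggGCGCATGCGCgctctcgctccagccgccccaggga
Cox6b1 (ETS core, read on the other strand), chr7:30626115-30626174, minus strand: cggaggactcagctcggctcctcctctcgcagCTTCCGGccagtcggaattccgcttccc

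Levels are given as scaled FPKM, the deposited FPKM divided by a factor per library that ranged from 0.863 to 1.115. No counts were used here, and the authors' deposited confidence bounds put the counting error of a typical member at 2.42% to 3.46% of its value in a library, which covers counting only. Creb1 itself checked only whether a library was rightly labelled as GFP or as a CREB virus. It lay between 9.56 and 15.7 FPKM in the 6 GFP libraries. With the CREB viruses it lay between 234 and 268 at 4 h, and between 567 and 2306 at 8 h. The ranges of the CREB forms overlap at each time, so the level of Creb1 does not check which form a library received. The labels do not state which part of Creb1 is deleted, so its level with GFP does not check the genotype. The defining neuronal markers were present (the summed FPKM of 8 pan-neuronal genes was 1529 to 2204 over the GFP, WT and S40A libraries at 8 h), and of 6 microglial markers Cx3cr1, Csf1r, Aif1 and P2ry12 had medians of 0.020 to 0.218 FPKM, while Tyrobp and Cd68 had 1.06 and 4.82, with a sum of 3.20 to 22.1 FPKM over the 8 h libraries for the 6. There are 4 libraries that stand apart: GFP at 8 h, replicate 2, correlated with its closest library at 0.859 over all tested genes, against 0.916 to 0.943 for every other library, and the 3 libraries of 4 h, replicate 1, hold 347 entries each marked as low in data. In those 3 libraries 54 tested members lie outside their own deposited confidence bounds, and none does elsewhere. The numbers in the deposited file names place the libraries in 6 series with neighbouring numbers, called runs here, although the sources used here do not say what the numbers mark. Run A is replicate 1 and run B replicate 2 at 4 h, runs C1 and C2 are replicates 1 and 2 of GFP, WT and S40A at 8 h, and runs D1 and D2 are replicates 3 and 4 of these viruses, together with the 2 replicates each of S133A and S40A-S133A.

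The single-copy members were among the abundant transcripts of these cultures, and the complexes were not expressed at the same level per subunit gene. The median over the 29 single-copy members of complex I was 90.3 FPKM, ranging from Ndufa11, an accessory subunit of the membrane arm, at 10.2 FPKM to Ndufa4 at 335 FPKM. For the 6 single-copy members of complex III it was 129 FPKM, from the core protein Uqcrc2 at 74.9 to the small subunit Uqcr10 at 286. Complex IV had a median of 287 FPKM over 9 members, from Cox7a1 at 1.38, the isoform of contractile tissue, to Cox6a1 at 647, the isoform of most other tissues. Complex V had 220 FPKM over 9 members, from Atp5s, a coupling factor, at 3.80 to the catalytic beta subunit Atp5b at 683. At least 100 FPKM was reached by 11, 3, 6 and 6 single-copy members of the 4 complexes in this order.

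**Figure D1:**
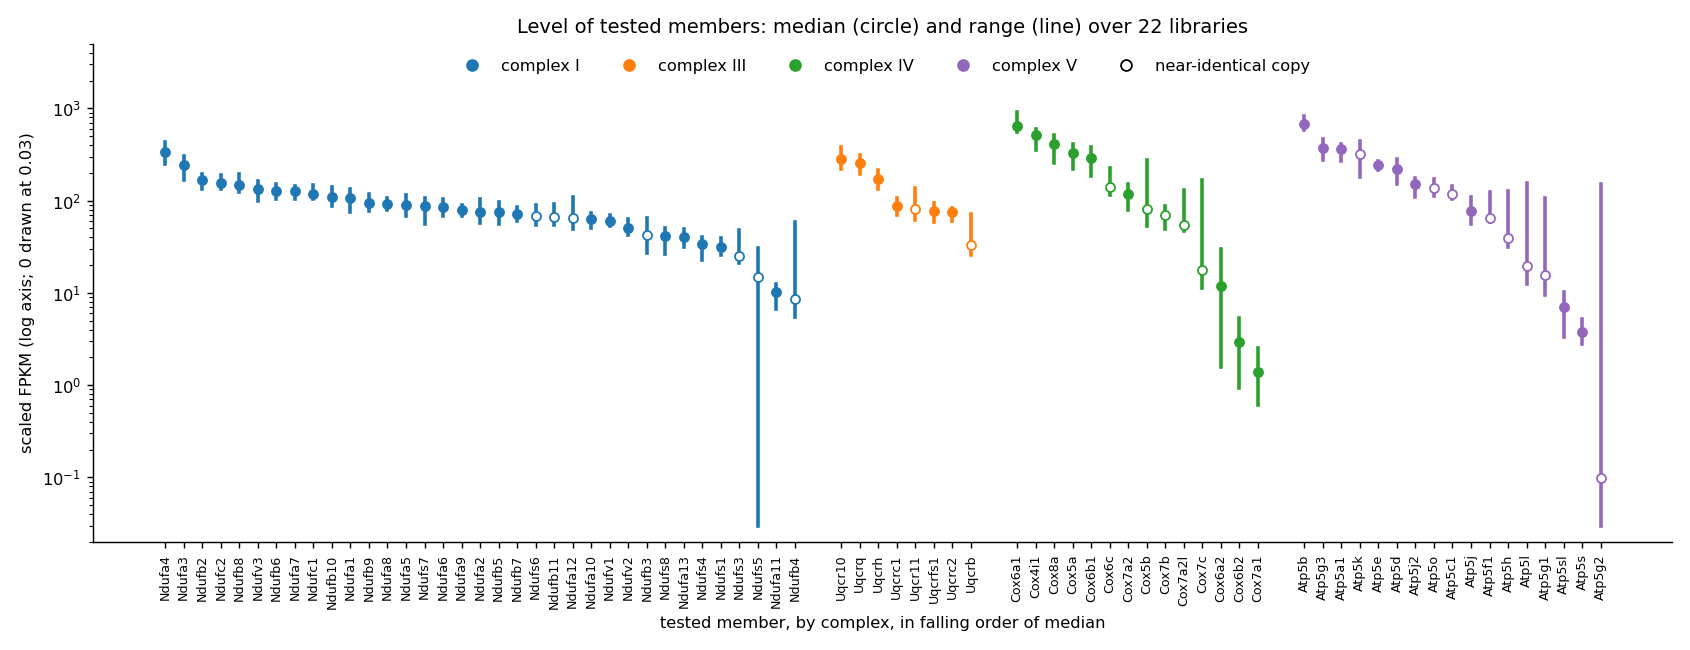
Scaled FPKM on a log axis for 74 of the 75 tested members, ordered within complexes I, III, IV and V; each circle is the median and each line the range over 22 libraries, and open circles are members with a near-identical copy. Most single-copy members have short lines, while several open circles, such as Cox7c, Atp5g1 and Atp5g2, span more than 10-fold.

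Most isoforms known from other tissues were low or listed at 0, with Cox6a2 as an exception. Cox8c, the testis form of subunit 8, and Ndufa4l2, which is known for its induction in hypoxia, were listed at 0 in all 22 libraries. Cox4i2, the lung form of subunit 4, was listed at 0 in 10 libraries, the testis form Cox7b2 in 4 and the muscle form Cox8b in 3, and these 5 genes did not reach the mean of 1 FPKM. Cox6b2, the testis form of subunit 6b, had a median of 2.93 FPKM (lowest 0.935, highest 5.38). Cox6a2, the heart and skeletal muscle form of subunit 6a, was the most variable single-copy member, with a median of 12.0 FPKM. It measured 1.56 to 2.68 FPKM in run A, 4.18 to 7.50 in run B and 2.74 to 29.7 at 8 h.

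Apart from these, the single-copy members varied little. The ratio of the highest to the lowest library had a median of 1.62 over the 53 members, and 5 exceeded 2-fold. Over the 5969 tested genes with a median of at least 10 FPKM the same ratio was 1.78, and 2063 exceeded 2-fold. Uqcrc2, for example, stayed between 60.3 and 83.3 FPKM over 22 libraries. Atp5b, the most abundant of them, ranged from 576 to 821 FPKM.

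Many of the members with near-identical copies lay at other levels in the 4 libraries that stand apart. The minimums that define a copy were set after these values had been seen. The contrast with the single-copy members is therefore a description and not a test. Cox7c measured 148, 136 and 127 FPKM in the GFP, WT and S40A libraries of run A and 18.5, 20.7 and 21.4 in those of run B. At 8 h it measured 20.1, 169, 16.47 and 13.2 in the 4 GFP libraries, 17.5, 22.8, 12.4 and 14.6 with WT, 22.3, 15.7, 14.3 and 15.8 with S40A, 13.9 and 17.8 with S133A, and 11.3 and 13.5 with S40A-S133A. The 3 libraries of run A and GFP replicate 2 thus lie far above the other 18, which do not exceed 22.8 FPKM. Atp5g2, a gene for the c subunit of the ATP synthase ring, had 140, 150 and 152 FPKM in run A and 128 in GFP replicate 2, while the other 18 libraries did not exceed 0.212 FPKM and 9 were listed at 0. Its related gene Atp5g1 had 85.0, 68.7 and 64.4 FPKM in run A and 108 in GFP replicate 2, with the other 18 libraries at 9.58 to 25.1. Atp5l, a subunit of the membrane sector, had 156, 151 and 131 in run A and 138 in GFP replicate 2, against 12.4 to 28.5 elsewhere. The complex I subunit Ndufb4 had 58.4, 55.0 and 49.9 in run A and 41.0 in GFP replicate 2, against 5.53 to 9.50. Ndufs5, also of complex I, reached 30.9 FPKM in GFP replicate 2 and was listed at 0 in WT at 8 h, replicate 2.

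**Figure D2:**
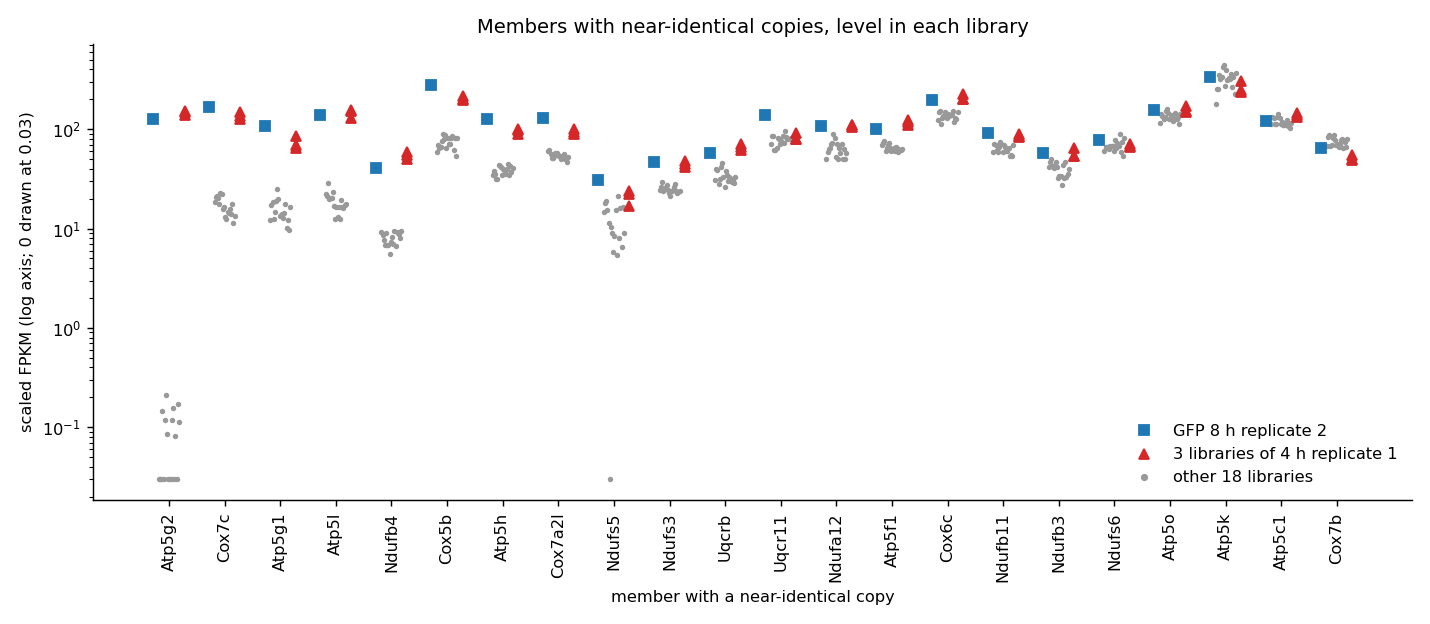
Scaled FPKM on a log axis for the 22 members with a near-identical copy; squares are GFP at 8 h replicate 2, triangles the 3 libraries of 4 h replicate 1, and dots the other 18 libraries. In 14 members the square and the mean of the triangles each lie at least 1.4-fold above the median of the other libraries. For Cox7c the square and the triangles lie at 127 to 169 FPKM against 11.3 to 22.8 for the dots.

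Of the 22 members with copies, 15 were at least 1.4-fold above the median of the other libraries in GFP replicate 2 and 14 in the mean of run A, and the 14 were in both: Atp5f1, Atp5g1, Atp5g2, Atp5h, Atp5l, Cox5b, Cox6c, Cox7a2l, Cox7c, Ndufa12, Ndufb4, Ndufs3, Ndufs5 and Uqcrb. Uqcr11 was the member high in GFP replicate 2 alone. Of the 53 single-copy members 4 passed this level in GFP replicate 2 (Cox6a1, Cox6a2, Cox6b2 and Cox7a1), 0 in run A and 0 in both. These counts describe a split that was made with the values known. The median ratios were 1.72 and 1.79 for the members with copies and 1.10 and 0.816 for the single-copy members. Without the 4 libraries the ratio of highest to lowest library among the members with copies had a median of 1.60 instead of 2.30 (20 members, Ndufs5 and Atp5g2 left out because of their 0 values). How reads that fit both a gene and its copy were counted in each library was not tested, and the 22 are therefore left out of the member counts that follow unless named.

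Across all libraries, the single-copy members stood highest in the S40A libraries at 8 h. For each library the deviation of every member from its own median over the 22 libraries was taken on the log2 scale, and the median over the 53 members is given. It was 0.18, 0.094, 0.088 and 0.20 in the 4 S40A libraries at 8 h, with 51, 47, 43 and 52 of 53 members above their own median. GFP at 8 h gave -0.17, 0.12, -0.065 and 0.092, and WT at 8 h gave -0.11, 0.025, 0.0035 and -0.012. S133A gave -0.054 and 0.0079, and S40A-S133A gave -0.13 and 0.10. Run A gave -0.17, -0.25 and -0.28 for GFP, WT and S40A, and run B gave -0.14, 0.029 and 0.063. The S40A libraries at 8 h lie above every WT and S133A library but overlap GFP replicates 2 and 4 and S40A-S133A replicate 2. The pooled SD of this value within groups was 0.12. In these bulk libraries, fewer cells of a type and less RNA per cell cannot be told apart.

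**Figure D3:**
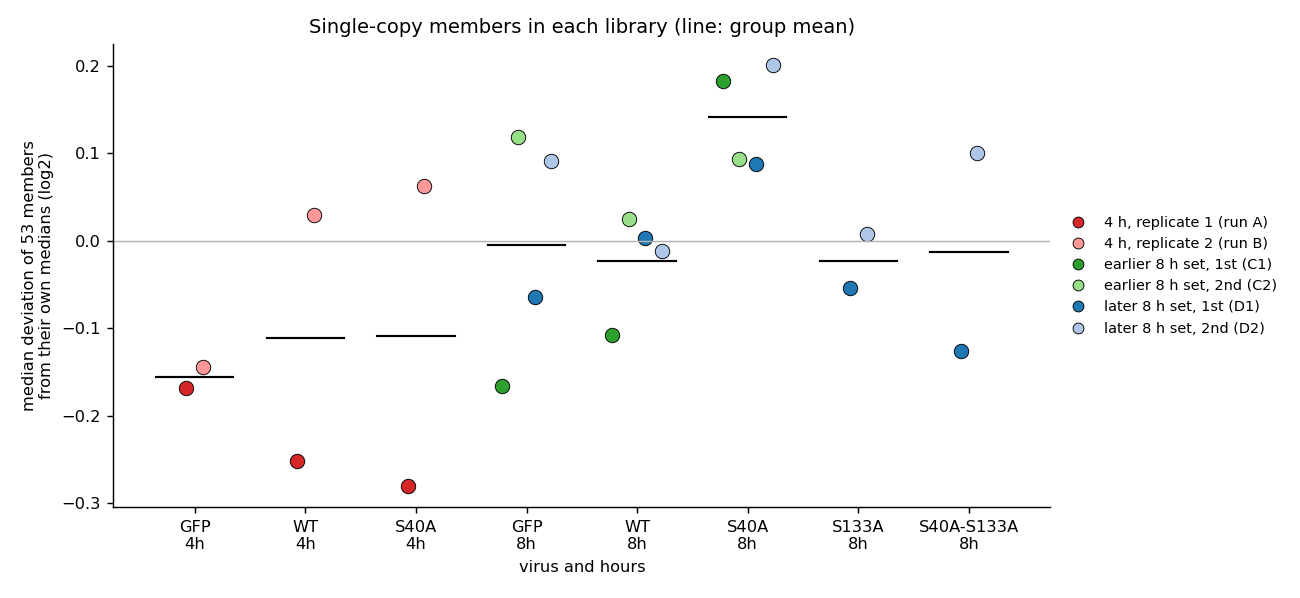
Median log2 deviation of the 53 single-copy members from their own medians, 1 point per library, by virus and hours and coloured by run; the line is the group mean. The 4 S40A libraries at 8 h lie at 0.088 to 0.20, and the 3 libraries of run A at -0.28 to -0.17.

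The effect of CREB supplied for 8 h was compared first with GFP. With WT CREB, 24 of 53 single-copy members were higher and the median log2 difference was -0.0099 (all tested genes 0). No member was called by limma at an adjusted p under 0.05, and 1 had an unadjusted p under 0.05; across all genes 0.00827% were called, that is Creb1 alone. The members with the smallest p were Atp5s (0.30 ± 0.10 SE, adjusted p = 1), Ndufs4, an accessory subunit of the matrix arm of complex I (0.14 ± 0.076), Uqcrc2 (0.12 ± 0.064) and Ndufa7 (-0.092 ± 0.062). Atp5s measured 2.95, 3.11, 3.59 and 3.77 FPKM with GFP and 4.05, 4.75, 4.01 and 4.62 with WT, with no overlap between these groups. The direction over the members turned with single libraries: 44 were higher without GFP replicate 2 (median 0.040), 33 without GFP replicate 4 (0.040), 33 without WT replicate 1 (0.011) and 28 without WT replicate 4 (0.0088), against 16 without GFP replicate 1 (-0.060). On unscaled FPKM 17 were higher (-0.044).

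With S40A CREB, 51 of 53 single-copy members were higher than with GFP, against 6323 of 12097 tested genes. The median log2 difference was 0.16, or 1.11-fold, against 0.0076 for all genes, and the exceptions were Cox6a1 (-0.054 ± 0.15) and Uqcrh, the hinge protein of complex III (-0.051 ± 0.16). No member was called by limma after adjustment over all genes, while 17 had an unadjusted p under 0.05, as had 712 of all genes. Across all genes 0.00827% were called, again Creb1 alone. All 29 members of complex I were higher (median 0.14), as were 5 of 6 of complex III (0.18), 8 of 9 of complex IV (0.16) and 9 of 9 of complex V (0.16). Left out in turn, the 8 libraries gave medians of 0.10 (without GFP replicate 1, where 47 members were higher) to 0.20, and no member was called in any of these fits. The 17 members became 10 without GFP replicate 1, 8 without GFP replicate 3, 9 and 11 without S40A replicates 1 and 4, 24 at most (without GFP replicate 2), and 7 on unscaled FPKM.

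Compared with WT CREB instead, which differs at the S40 site, S40A again had 51 of 53 single-copy members higher, against 6264 of 12097 genes. The median was 0.16, or 1.12-fold, against 0.0048 for all genes. The exceptions were Atp5s (-0.16 ± 0.10) and Cox6b2 (-0.046 ± 0.36). No member was called by limma and 15 had an unadjusted p under 0.05, and 0% of all genes were called, with 498 at an unadjusted p under 0.05. Medians by complex were 0.16, 0.19, 0.14 and 0.14 for I, III, IV and V, with 29 of 29, 6 of 6, 8 of 9 and 8 of 9 members higher. The 15 members became 6 without S40A replicate 1, 6 and 8 without WT replicates 1 and 4, 17 at most (without S40A replicate 3), and 9 on unscaled FPKM. Both comparisons share the S40A libraries, so they are not independent of each other.

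**Figure D4:**
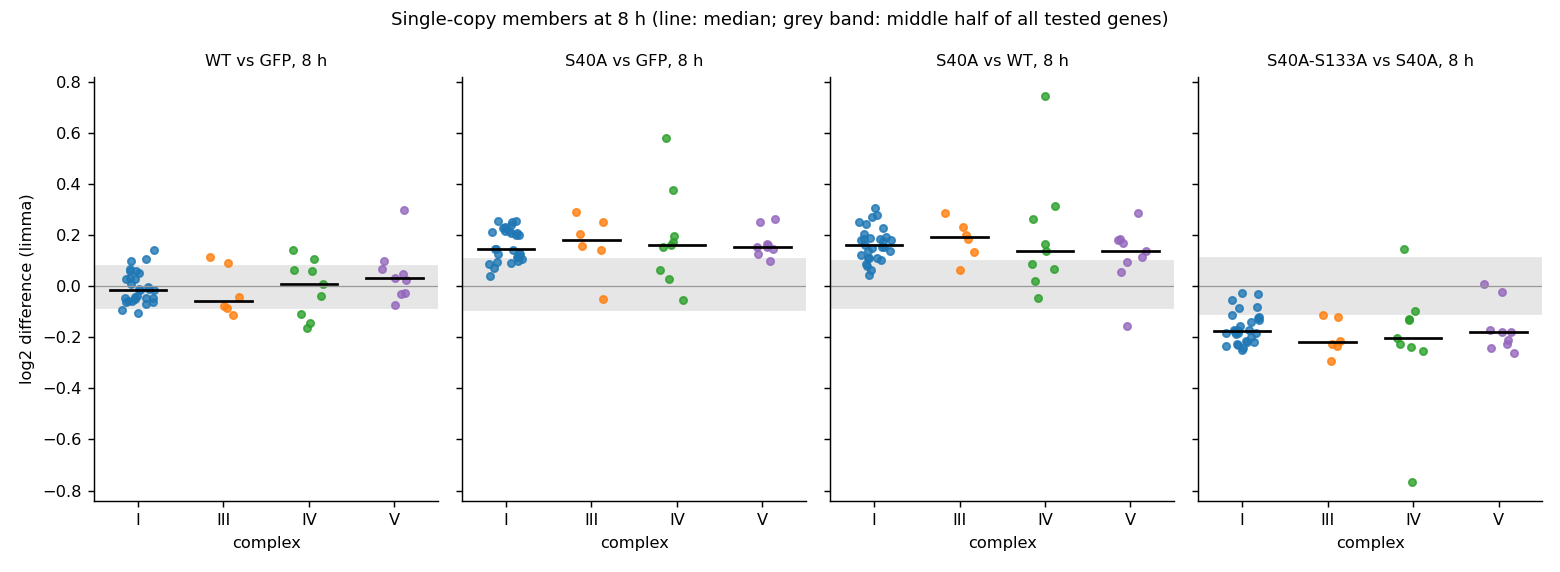
Fitted log2 differences at 8 h for the 53 single-copy members, 1 point each, by complex, in 4 comparisons; black lines are medians of a complex and the grey band spans the quartiles of all tested genes. With S40A most points lie above 0 against GFP and WT, while S40A-S133A against S40A has all 29 members of complex I below 0 (median -0.18).

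Cox6b1, the subunit of complex IV that faces the intermembrane space, had the smallest p against GFP. It measured 237, 284, 259 and 290 FPKM with GFP, 258, 276, 329 and 257 with WT, and 344, 327, 377 and 340 with S40A. Every S40A library lay above every GFP library, and replicate 3 of WT overlapped S40A by a small margin. The log2 difference from GFP was 0.38 ± 0.091 (95% interval 0.18 to 0.58, limma adjusted p = 0.72) and that from WT was 0.31 ± 0.091 (0.12 to 0.51, adjusted p = 1).

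Uqcrfs1, the Rieske iron-sulfur protein of complex III and a carrier of the full CRE printed above, measured 69.0, 67.6, 82.5 and 76.6 FPKM with GFP, 71.6, 70.8, 94.3 and 79.4 with WT, and 94.8, 89.9, 91.2 and 85.9 with S40A. All 4 S40A libraries lay above all GFP libraries, and 1 WT library lay within their range. The log2 difference was 0.29 ± 0.082 against GFP (adjusted p = 0.75) and 0.20 ± 0.082 against WT (adjusted p = 1). S133A gave 88.6 and 77.5 FPKM and S40A-S133A gave 79.8 and 82.8. Uqcrc1, a core protein of complex III, measured 75.1, 102, 92.5 and 100.3 FPKM with GFP, 78.8, 84.1, 95.1 and 91.0 with WT and 106, 98.2, 99.2 and 107 with S40A. The S40A libraries lay above every WT library and overlapped GFP, with log2 differences of 0.23 ± 0.093 and 0.16 ± 0.093 (adjusted p = 1 and 0.87). With S133A it measured 85.1 and 91.1, and with S40A-S133A 79.2 and 95.6.

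Members of complex I were likewise highest with S40A. Ndufv2, an iron-sulfur subunit next to the NADH site, measured 50.9, 44.6, 49.2 and 50.4 FPKM with GFP, 51.8, 55.6, 50.7 and 45.9 with WT, and 63.9, 58.5, 54.6 and 54.2 with S40A. The S40A and GFP libraries did not overlap, and 1 WT library fell within the S40A range (log2 difference from GFP 0.24 ± 0.070, adjusted p = 0.77; from WT 0.18 ± 0.070). Ndufs8, a further iron-sulfur subunit, had the smallest p against WT, with 38.3, 38.3, 42.9 and 39.98 FPKM with WT and 49.2, 46.0, 50.6 and 48.4 with S40A. Its GFP libraries measured 36.6, 44.6, 40.9 and 45.9, so that S40A lay above every library of either control. The log2 differences were 0.28 ± 0.076 from WT (limma adjusted p = 1) and 0.21 ± 0.076 from GFP (adjusted p = 0.79). Ndufa4 measured 272, 369, 312 and 346 FPKM with GFP, 300.2, 341, 331 and 312 with WT and 404, 358, 367 and 391 with S40A. It overlapped between S40A and GFP through GFP replicate 2 and did not overlap between S40A and WT, with log2 differences of 0.23 ± 0.096 and 0.24 ± 0.096.

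Uqcrc2, Uqcrq and Atp5j complete the members with the smallest p. Uqcrc2 measured 64.4, 60.3, 75.5 and 69.2 FPKM with GFP and 83.1, 75.4, 83.3 and 78.6 with S40A, where GFP replicate 3 lies just above S40A replicate 2 (log2 difference 0.25 ± 0.064, adjusted p = 0.72). Uqcrq, a small subunit of complex III, measured 243, 217, 263 and 255 with WT and 299, 282, 298 and 314 with S40A, without overlap (0.29 ± 0.093, adjusted p = 1). Atp5j, a stalk subunit of the ATP synthase, measured 76.0, 90.2, 69.7 and 55.6 with WT and 101, 86.8, 81.7 and 83.4 with S40A, with replicate 2 of WT inside the S40A range (0.29 ± 0.093, adjusted p = 1).

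Counting overlap in every library gave the same picture with few members fully separated. In 10 of 53 single-copy members every S40A library at 8 h lay above every GFP library, against 2.03% of all tested genes: Atp5e, Atp5g3, Cox6b1, Ndufb5, Ndufb6, Ndufs1, Ndufs4, Ndufs8, Ndufv2 and Uqcrfs1. In 14 of 53 every S40A library lay above every WT library, against 1.55% of genes: Cox4i1, Cox7a2, Cox8a, Ndufa1, Ndufa4, Ndufa8, Ndufb10, Ndufb2, Ndufb6, Ndufb9, Ndufs1, Ndufs8, Uqcrc1 and Uqcrq. No member had every S40A library below. The counts moved with the scaling and with single libraries. Without scaling they were 4 and 7, without GFP replicate 2 or 4 the first was 19 or 18, and without WT replicate 2 the second was 23. Leaving out a library can only keep or raise such a count, so the higher counts do not show that it is stable. The shares of all genes were not counted for these settings.

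Within runs, which hold 1 library of each virus, S40A minus GFP had median log2 differences of 0.34, 0.033, 0.15 and 0.099 in C1, C2, D1 and D2 in turn, with 52, 28, 46 and 47 of 53 members higher. S40A minus WT had 0.28, 0.050, 0.073 and 0.21, with 51, 34, 42 and 50 higher. WT minus GFP had 0.066, -0.088, 0.079 and -0.12, with opposite signs among the runs. Run C2, which holds GFP replicate 2, gave the smallest S40A difference in both comparisons. In all 4 runs S40A was above GFP in 21 members and above WT in 28, against 9.71% and 10.3% of all genes, and WT was above GFP in 5 members, against 5.56%.

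**Figure D5:**
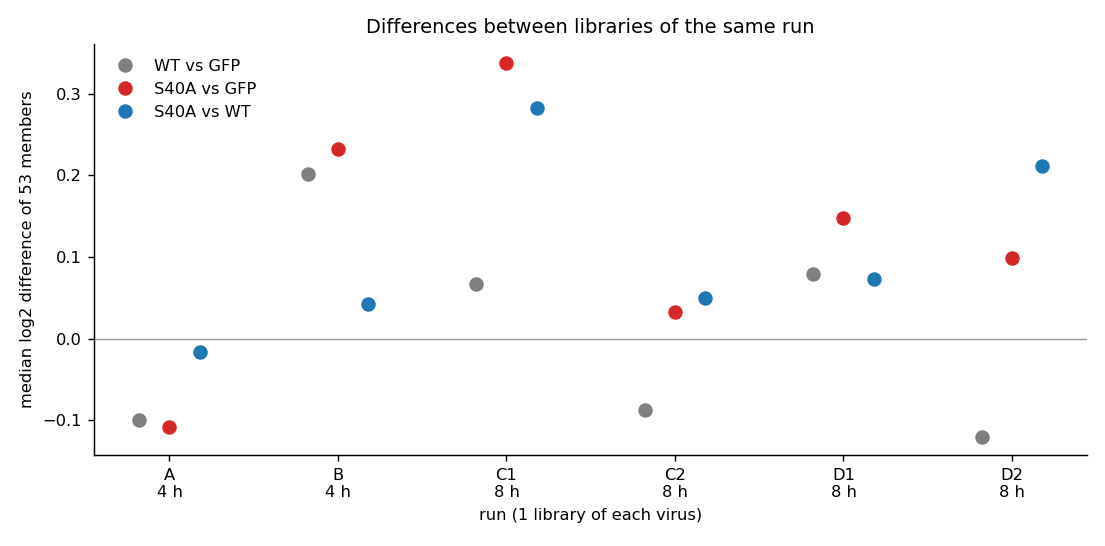
Median log2 difference of the 53 single-copy members between libraries of the same run, for WT minus GFP, S40A minus GFP and S40A minus WT, with runs A and B at 4 h and runs C1 to D2 at 8 h. At 8 h S40A minus GFP is above 0 in each run, between 0.033 and 0.34, while at 4 h it is -0.11 in run A and 0.23 in run B.

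With the forms that lack the S133 phosphorylation site the medians over all libraries were near 0 against GFP and WT, but the libraries of S40A-S133A lay on opposite sides. S133A had 22 of 53 single-copy members higher than GFP (median -0.036) and 16 higher than WT (median -0.021). S40A-S133A had 23 higher than GFP (-0.022), 23 higher than WT (-0.021) and 29 higher than S133A (0.0049). In none of these 5 comparisons was a member called by limma or below an unadjusted p of 0.05, and the shares of all genes called were 0.0248%, 0.0165%, 0.0165%, 0.00827% and 0.0248% in this order. Among the members with the smallest p were Ndufv2 (0.13 ± 0.090) for S133A against GFP, and the smallest p belonged to Ndufa7 (0.17 ± 0.080) and Atp5s (-0.25 ± 0.13) for S133A against WT, to Atp5e (0.14 ± 0.085) and Uqcrc2 (0.13 ± 0.083) for S40A-S133A against GFP, to Ndufa7 (0.13 ± 0.080) and Atp5sl (-0.21 ± 0.17) for S40A-S133A against WT, and to Cox6b2 (0.50 ± 0.50) and Ndufa5 (0.16 ± 0.18) for S40A-S133A against S133A. In run D1 S40A-S133A was above WT in 8 of 53 members (median -0.15) and above S133A in 7 (-0.087), and in run D2 in 46 (0.11) and 48 (0.091). Without its replicate 1 or 2 it was above GFP in 47 (0.10) or 15 (-0.14), above WT in 49 (0.11) or 10 (-0.14), and above S133A in 45 (0.15) or 7 (-0.10). Its median also became positive without GFP replicate 2 (0.013) or 4 (0.043) and, against WT, without WT replicate 2 (0.0055), and against S133A it became negative without S133A replicate 1 (-0.015). S133A was above GFP in 33 members without GFP replicate 4 (0.017), in 32 without S133A replicate 1 (0.019) and in 18 without GFP replicate 3 (-0.081), and above WT in 29 without S133A replicate 1 (0.0081). Markers of astrocytes and radial glia were higher than with WT in 7 of 7 for S133A (median 0.41) and 7 of 7 for S40A-S133A (0.43). Pan-neuronal markers were also higher than with WT, in 6 of 8 for S133A (0.14) and 6 of 8 for S40A-S133A (0.11). Of the 2 tested microglial markers 1 was higher with S133A (median -0.30) and 0 with S40A-S133A (-0.20). None of these markers was called, and their part in the member values was not tested. With 2 libraries in each of these groups the intervals of single members are wide: for Ndufv2 in S133A minus GFP it ran from -0.069 to 0.32.

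Set against S40A directly, S40A-S133A had 2 of 53 single-copy members higher (Cox6b2 and Atp5s) and 51 lower, with a median of -0.18 against 0.0019 for all genes. No member was called (0.00827% of all genes were), and 2 had an unadjusted p under 0.05: Uqcrc1 (-0.29 ± 0.12, adjusted p = 1) and Ndufs8 (-0.23 ± 0.098, adjusted p = 1). The S40A-S133A libraries measured 79.2 and 95.6 FPKM for Uqcrc1 and 38.3 and 47.0 for Ndufs8, and for Ndufs8 the higher of them lies between S40A libraries. With the run as a block 4 members were below it. All 7 markers of astrocytes and radial glia were higher in S40A-S133A than in S40A (median 0.52, none called), with sums of 133.2 to 292 FPKM against 68.2 to 181, as were both tested microglial markers (0.84), and 6 of 8 pan-neuronal markers were lower (-0.082); their part was not tested. The value rests on which S40A-S133A library is used: the median was -0.30 without replicate 2 and -0.052 without replicate 1. Within runs D1 and D2 it was -0.21 and -0.090, with 50 of 53 lower in each. The interaction, the S40 effect where S133 is lost minus that where S133 is present, had a median of -0.17 with 49 of 53 members below 0, and no member was called or below an unadjusted p of 0.05 (0.0248% of all genes were called). Its smallest p were those of Ndufa7 (-0.22 ± 0.11) and Ndufs8 (-0.27 ± 0.13), both with an adjusted p of 1. This median was -0.020 without S40A-S133A replicate 1.

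At 4 h both S40A medians lay closer to 0 than at 8 h, and the runs gave opposite signs. WT had 39 of 53 single-copy members above GFP (median 0.034), S40A had 44 above GFP (0.055) and 33 above WT (0.0096), with no member called or below an unadjusted p of 0.05 and 0.0909% of all genes called in each. The smallest p were those of Uqcrh (0.20 ± 0.12) and Ndufa3 (0.29 ± 0.26) for WT against GFP, Uqcrh (0.16 ± 0.12) and Cox6b2 (0.35 ± 0.30) for S40A against GFP, and Cox6b2 (0.36 ± 0.30) and Ndufa6 (-0.14 ± 0.15) for S40A against WT. On unscaled FPKM WT was above GFP in 22 members (-0.0087) and S40A above WT in 39 (0.047). With the run as a block no member was called, 2, 0 and 0 single-copy members had an unadjusted p under 0.05, and of all genes 10, 8 and 7 were called instead of 11 in each. Within run A the medians were -0.10, -0.11 and -0.017 and within run B 0.20, 0.23 and 0.043, so each changed sign between the runs. The 4 h libraries for Uqcrfs1, for example, were 65.9, 59.4 and 63.5 FPKM for GFP, WT and S40A in run A and 73.8, 77.5 and 77.6 in run B. For S40A against GFP at 4 h, 7 of 7 markers of astrocytes and radial glia were higher (median 0.41). So were 5 of 6 of the oligodendrocyte lineage (0.58) and 3 of 8 pan-neuronal markers (-0.033), and none was called. In run A 5 of 7 astrocyte and 0 of 8 pan-neuronal markers stood at least 1.4-fold high. The part of these markers in the member values was not tested.

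Differences between the effects at 8 h and 4 h were tested in 1 fit over all 22 libraries. S40A against GFP was larger at 8 h in 46 of 53 members (median 0.12), S40A against WT in 49 (0.14), and WT against GFP in 17 (-0.065). No member was called or below an unadjusted p of 0.05, and 0.00827%, 0.0248% and 0.0165% of all genes were called. With the run as a block, which pairs the 4 h libraries, no member was called either, and 2, 1 and 4 single-copy members had an unadjusted p under 0.05. The smallest p belonged to Uqcrc2 (0.27 ± 0.16) and Uqcrfs1 (0.28 ± 0.18), to Uqcrq (0.31 ± 0.19) and Ndufs8 (0.37 ± 0.24), and to Atp5s (0.39 ± 0.27) and Ndufa3 (-0.35 ± 0.25) in these 3 comparisons, each with an adjusted p of 1. The 4 h libraries decide these values: S40A against GFP became -0.063 without S40A at 4 h, replicate 1, and 0.31 without replicate 2. S40A against WT became 0.014 and 0.28 without WT at 4 h, replicate 2 and replicate 1, and 0.017 and 0.30 without S40A at 4 h, replicate 1 and replicate 2. WT against GFP became 0.063 without WT at 4 h, replicate 2, and -0.17 without replicate 1. The members' own change from 4 to 8 h cannot be told apart from the run: the mean at 8 h exceeded that at 4 h by a median of 0.13 with GFP, 0.10 with WT and 0.23 with S40A, but against run B alone these were 0.14, -0.035 and 0.074 and against run A alone 0.16, 0.24 and 0.43.

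Single-copy members were called between runs and none between viruses, a contrast that all genes shared. Of all genes 40.8% and 30.3% were called between runs and at most 0.0909% between viruses. With all libraries 9 and 14 of the 53 single-copy members were called between runs, and these counts moved with single libraries, as given below. With virus and run both as terms, run B against run A called 9 single-copy members, all higher in run B, and 0 lower (median 0.22), where 40.8% of all genes were called in either direction. The 9 were Ndufs8 (0.53 ± 0.057, adjusted p = 0.012), Atp5sl, Ndufa2, Atp5s, Cox7a2, Cox6a2 (1.07 ± 0.23), Uqcrfs1 (0.27 ± 0.063), Atp5d and Ndufa3. Ndufs8 measured 27.1, 28.9 and 26.5 FPKM in run A and 36.9, 42.9 and 41.1 in run B. Of the 22 members with copies 14 were called lower in run B, led by Atp5g2 (-7.21 ± 0.064), Ndufb4 (-2.55 ± 0.045) and Cox7c (-2.70 ± 0.10), followed by Cox5b, Atp5h, Atp5l, Atp5g1, Ndufa12, Ndufs3, Cox7a2l, Atp5f1, Uqcrb, Ndufb11 and Cox6c, and Cox7b was called higher (0.61 ± 0.13). Single libraries weighed on these counts: without either GFP library 32 single-copy members were called (31 higher, 1 lower), and without either WT or either S40A library 0, with 6 and 3 at an unadjusted p under 0.05. The members with copies called lower were then 14, 6 and 5. The calls over all genes moved as well, from 482 to 5339 with 1 library left out, against 4939 with all libraries.

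Run D2 against run D1, over 10 libraries with 5 viruses in each run, called 14 single-copy members, all higher in D2 (median 0.12), where 30.3% of all genes were called. They were Uqcrh (0.38 ± 0.046, adjusted p = 0.0065), Cox6b2 (0.85 ± 0.11), Ndufa2, Cox6a2 (1.12 ± 0.17), Ndufc1, Ndufa9, Atp5d, Ndufs4, Ndufa3, Cox5a, Uqcr10, Atp5b, Ndufb6 and Cox7a2, with Ndufa12 and Ndufs6 among the members with copies. Uqcrh measured 161, 154, 152, 146 and 135 FPKM in the GFP, WT, S40A, S133A and S40A-S133A libraries of D1 and 196, 192, 205, 188 and 196 in those of D2, without overlap. Without either library of a virus the 14 became 10 for GFP, 7 for WT, 5 for S40A, 6 for S133A and 5 for S40A-S133A. Over all genes the calls ranged from 1581 to 3846 in these fits, against 3663 with all libraries. Direction between runs depends on the scaling: on unscaled FPKM the medians were -0.059 for B minus A, with 3 members called higher and 8 lower, and -0.0094 for D2 minus D1, with 4 higher and 8 lower, where the median of all genes moved to -0.25 and -0.13. Of the variation of a single-copy member in the balanced 4 h set, a median of 5.25% lay between viruses and 56.4% between runs, against 7.67% and 73.2% over all genes. Degrees of freedom alone would give mean shares of 40% and 20% there. The mean and the median of such shares can differ, so small distances from these figures cannot be read as above or below chance. In the C set the members had medians of 41.5% between viruses and 13.2% between runs, against 43.1% and 15.7% over all genes. The mean shares from degrees of freedom are again 40% and 20%. In the D set the members had medians of 36.5% and 24.3%, against 31.4% and 32.9% over all genes. Degrees of freedom alone would give mean shares of 44.4% and 11.1% in that set.

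For the members with copies, the comparisons with GFP at 8 h turned on GFP replicate 2. WT was above GFP in 1 of the 22 (median -0.17) and S40A in 10 (median -0.035), while S40A was above WT in 21 (median 0.12). Without GFP replicate 2 the first were 14 and 20 of 22, with medians of 0.029 and 0.14. No member with a copy was called in these 3 comparisons, and Cox7c was -0.79 in S40A minus GFP with all libraries.

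The S40A differences were also set out by promoter motif. The 4 members with the full CRE had a median S40A minus GFP difference of 0.18, against 0.15 for the 40 single-copy members whose promoter lacks it, and 0.19 against 0.15 for S40A minus WT. For the NRF1 element, held by 7 single-copy members, the medians with and without it were 0.16 and 0.15 against GFP. Against WT they were 0.18 and 0.15. The ETS core, held by 9, gave 0.16 and 0.15 against GFP and 0.19 and 0.16 against WT. For the shorter CRE core, held by 19, the medians were 0.15 and 0.14 against GFP and 0.18 and 0.14 against WT. These are descriptions with no test.

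Other genes of mitochondrial respiration were taken from fixed lists. The 4 genes of complex II, succinate dehydrogenase, were all higher with S40A than with GFP (median 0.20) and than with WT (0.13): Sdha, the flavoprotein, had means of 64.7 ± 6.25 FPKM (SD, n = 4) with GFP, 67.0 ± 6.74 with WT and 73.9 ± 3.57 with S40A. The summed FPKM of complex II was 266 to 302 in the GFP libraries, 272 to 302 with WT and 304 to 338 with S40A. Of 18 genes of the tricarboxylic acid cycle and pyruvate dehydrogenase 15 were higher with S40A than with GFP (median 0.13) and 16 than with WT (0.15), and of 39 tested assembly factors 32 (0.060) and 28 (0.061). Among 21 carriers and pores 13 (0.060) and 17 (0.11) were higher. Of these carriers 5 stood at least 1.4-fold high in GFP replicate 2 and in run A alike, as the members with copies did: Cycs, which is cytochrome c, measured 24.8 FPKM in GFP replicate 2 against 0.923 to 1.41 in the other GFP libraries at 8 h, and the others were Ndufab1, Slc25a5, Timm23 and Vdac3. Without GFP replicate 2, 17 of the 21 carriers were higher with S40A than with GFP (median 0.13), as were 16 of the 18 cycle genes (0.17), 26 of the 39 assembly factors (0.054) and all 4 genes of complex II (0.19). Among 13 tested regulators 6 (-0.017) and 5 (-0.080) were higher. This list includes Creb1, which the virus supplied and which counts among those higher than GFP by design. Nrf1 was at -0.091 and -0.082 and Gabpa, a subunit of GABP, at 0.0078 and -0.21, while Ppargc1a, a coactivator of mitochondrial genes, was at 0.33 and 0.36. Without GFP replicate 2 the regulators had 5 higher than GFP, Creb1 included (-0.088). In these 5 lists limma called Creb1 against GFP and no other gene.

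Markers of cell types are given beside these results, and their part in the member differences was not tested. With S40A against GFP, 5 of 8 pan-neuronal markers were higher (median 0.16), 2 of 6 of excitatory neurons (-0.055), 7 of 7 of inhibitory neurons (0.29), 1 of 7 of astrocytes and radial glia (-0.35), 3 of 6 of the oligodendrocyte lineage and 0 of 2 tested of microglia (-0.48), while the vascular and fibroblast list had 1 tested gene, Col1a1 (-0.037). None was called. Without GFP replicate 2 the medians were 0.11 for pan-neuronal (6 of 8 higher), -0.25 for excitatory, 0.32 for inhibitory, -0.32 for astrocyte and -0.70 for microglial markers, and Col1a1 was at 0.054. Against WT 6 of 8 (0.19), 2 of 6 excitatory (-0.15), 6 of 7 inhibitory (0.24), 2 of 7 astrocyte (-0.052) and 0 of 2 microglial markers (-1.04) were higher. Summed FPKM of the pan-neuronal markers was 1645 to 1891 with GFP, 1529 to 2059 with WT and 1881 to 2204 with S40A, and that of the 7 astrocyte markers 84.3 to 232, 76.8 to 173 and 68.2 to 181. The inhibitory sums were 237 to 471, 284 to 608 and 381 to 503, and all of these ranges overlap between groups.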

How the data were processed

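Gene-level FPKM values were deposited by the authors, 1 table for each of 22 libraries. The submitters' processing notes list CASAVA 1.7, Bowtie 0.12.2 and Cufflinks as tools, and give mm8 and mm10 as builds with no role for either. Positions in the deposited tables of 79 of 79 members matched to GENCODE M21 overlap their gene on mm10 (GRCm38). The strand setting and the treatment of reads with several matches are not given in the sources used here. Read depth is not recorded in the files, so no count test was possible.

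FPKM were divided by median-of-ratios factors from 14305 genes and turned into log2(scaled FPKM + 1), a scale that understates changes of low genes. The 12097 genes that averaged 1 FPKM or more, without a failed estimate, were tested two-sided with limma 3.58.1 (trend, empirical Bayes, R 4.3.3) and Benjamini-Hochberg adjustment over all of them, called at an adjusted p under 0.05. The 8 h fit used 16 libraries with the library set (C or D) as a term, the 4 h fit used 6, and differences between times used all 22. Apart from the comparisons between runs, the main fits had no term for the run. Their SEs and p-values therefore ignore any pairing of libraries by run. The fits were tested on simulated data. Copies were found with blastn 2.17.0 against GENCODE M21 transcripts, at 95% identity or more over at least 100 bases for a pseudogene and 200 for another gene; these minimums were set after the values had been seen. Same-numbered libraries were compared for pairing through the correlation of their deviations from group means. At 4 h the 3 correlations were 0.55 to 0.56, so the numbers pair these libraries. In set C they were -0.041 to 0.052, and in set D 0.067 to 0.40, all positive. Named are the markers Uqcrc1, Uqcrfs1, Ndufv2 and Ndufa4, the highest and lowest member of each complex, the members with the smallest p in each comparison (4 in each of WT and S40A against GFP and S40A against WT at 8 h, 2 elsewhere), every called member, members listed at 0, the 6 most variable members with copies, and tissue isoforms. The values of 1 member that this rule names are not reported here; it stays in the fits, counts and medians. The members and lists were chosen with earlier results of these data known. Alternatives were another scaling, pseudocount, filter, moderation, set or block term, set of members, and each library left out.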

Additional observations from a re-analysis of the deposited data

Results flagged for a closer look

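Among the 75 tested members, each in the 4 libraries of GFP, WT and S40A at 8 h, 20 of 225 groups (8.89%) had 1 library far from the other 3, where chance gives about 1 in 20. Of these 10 were members with near-identical copies that stood high in GFP replicate 2: Atp5f1 at 101 FPKM against 59.9 to 61.6 in the other GFP libraries, Atp5g1 at 108 against 12.6 to 13.6, Atp5g2 at 128 against at most 0.147, Atp5h at 127 against 31.3 to 39.7, Atp5l at 138 against 12.6 to 19.8, Cox5b at 276 against 64.4 to 81.0, Cox7a2l at 131 against 51.0 to 55.3, Cox7c at 169 against 13.2 to 20.1, Ndufb4 at 41.0 against 6.85 to 8.17 and Ndufs3 at 46.9 against 21.3 to 23.8.

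In S40A replicate 1 the high members were Atp5f1 (72.1 FPKM, others 64.8 to 65.6), Ndufs1 (39.2, others 34.2 to 34.7) and Uqcrb (45.6, others 32.6 to 33.4). S40A replicate 4 stood high for Ndufa2 (105 against 76.4 to 79.9), Ndufc1 (146 against 115 to 118) and Ndufs6 (89.1 against 67.8 to 68.4), and WT replicate 4, of the same run, for Ndufa2 (91.6 against 74.5 to 76.9). WT replicate 2 stood high for Atp5c1 (133.4 against 111 to 112) and Ndufb5 (87.4 against 74.7 to 76.3) and low for Ndufb2 (149.9 against 177 to 182). Of the flagged members only Ndufs1, Ndufa2, Ndufc1, Ndufb5 and Ndufb2 are single-copy. The share of flagged groups covers all tested members, so it does not show an excess among the single-copy members.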

How the results depend on the processing

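No alternative called a single-copy member between viruses, and the median S40A difference of the single-copy members at 8 h stayed above 0 in all against GFP and WT: leaving out 1 library gave 0.10 to 0.20 against GFP and 0.14 to 0.18 against WT. With the replicate block (run as a block) the medians were the same, 0.16, 0.16 and -0.0099 for S40A against GFP, S40A against WT and WT against GFP at 8 h, no call of a member changed, and fewer of all genes were called at 4 h, as given above. For S40A against GFP, 22 single-copy members instead of 17 then had an unadjusted limma p under 0.05, and 1268 instead of 712 of all genes. Against WT these were 17 instead of 15, and 903 instead of 498. The members with copies alone gave -0.17 for WT against GFP, -0.035 for S40A against GFP and -0.17 for S133A against GFP at 8 h, and -0.31 and -0.11 for the 8 h minus 4 h differences of the first 2. For run B minus run A, their median was -0.66, that of all tested members 0.060 and that of unscaled FPKM -0.059, and the members called were 15 with copies alone, 24 with all tested members, 16 with upper-quartile scaling, 17 with robust moderation and 4 without the filter. For run D2 minus run D1 unscaled FPKM gave -0.0094, and 7 members were called without the filter and 2 with copies alone. Leaving out 1 library, the calls of single-copy members ranged from 0 to 32 and from 5 to 10, and those of all genes from 482 to 5339 and from 1581 to 3846.

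Leaving out 1 library, the medians ranged from -0.060 to 0.040 for WT against GFP at 8 h, -0.081 to 0.019 for S133A against GFP, -0.078 to 0.0081 for S133A against WT, -0.14 to 0.10 for S40A-S133A against GFP, -0.14 to 0.11 against WT, -0.30 to -0.052 against S40A and -0.10 to 0.15 against S133A, and from -0.28 to -0.020 for the interaction. At 4 h they ranged from -0.096 to 0.17 for WT against GFP, -0.13 to 0.21 for S40A against GFP and -0.19 to 0.19 for S40A against WT, and for 8 h minus 4 h from -0.17 to 0.063, -0.063 to 0.31 and 0.014 to 0.30. The counts of non-overlapping members were 4 and 7 unscaled, and 10 to 19 against GFP and 14 to 23 against WT with 1 library left out. Such a count can only stay or rise when a library is left out. Leaving out libraries for these counts, and GFP replicate 2 for the pathway and marker lists, was chosen after seeing the data. Named members near 0 changed sign: for WT against GFP, Ndufa4 was 0.0048 with upper-quartile scaling, 0.012 in set C and -0.099 to 0.066 with 1 library left out, Ndufv2 was -0.046 in set D and -0.0016 to 0.0997 with 1 left out, and Uqcrc1 -0.16 to 0.0013. With 1 library left out Ndufa6 ranged from -0.27 to 0.0021 for S40A against WT at 4 h, and for S40A-S133A against S133A Cox6b2 ranged from -0.14 to 1.14 and Ndufa5 from -0.0035 to 0.32. Unscaled, Uqcrfs1 was -0.0021 for run B minus A and Ndufs4 -0.034 for D2 minus D1. The causes of these moves were not tested. Read depth per library is unknown, which limits how members near 1 FPKM can be read.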
